A study of Homo sapiens with 6 samples.

Results

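The genes described here encode the proteins of the cytosolic ribosome, and the data are the accessible sites at both ends of those genes. Members were the protein-coding genes whose symbol is RPL or RPS followed by a number, together with RPLP0, RPLP1, RPLP2 and RPSA, without the RPS6K kinase genes, RPS19BP1 and symbols with a hyphen. RefSeq holds 87 such genes among 20037 protein-coding genes, 77 of them core genes and 10 of them paralogues such as RPL22L1 and RPS27L. A site belonged to a gene when it lay within 1000 bases of either end of that gene, and 145 of the 181135 sites in the deposited table did. The rule used names and distances and no measured value. A site was found for 84 of the 87 genes, and RPL10L, RPS4Y1 and RPS4Y2 had none. One site lay near an end for 33 genes, 2 sites for 42 genes and 3 or more for 9 genes.

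Accessibility was measured by ATAC-seq, in which a transposase cuts open chromatin and tags it with sequencing adapters, so that reads pile up over accessible DNA. The cells were K562, a line from a human chronic myelogenous leukaemia with erythroid features, labelled as wild type in genotype. The groups were cells given 25 nM phorbol 12-myristate 13-acetate (PMA), an activator of protein kinase C, for 0, 6 or 72 h to drive them towards megakaryocytes. Each group had 2 libraries, all made by the Omni-ATAC procedure from detergent-lysed cells, and the medium of the culture was renewed at 24 and 48 h. The labels do not say whether the 2 libraries of a time point came from separate cultures, so the p-values below measure only the spread between these libraries, which may be technical. In bulk chromatin, fewer cells with an open site and a less open site in every cell cannot be told apart.

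Ribosomal proteins assemble with ribosomal RNA into the large and the small subunit, and a dividing cell makes them in near equal amounts from genes scattered over the genome. Their promoters usually lack a TATA box and begin transcription at a C inside a run of pyrimidines. That run becomes the 5′ terminal oligopyrimidine (TOP) tract of the mRNA, through which growth signals control its translation. Loss of 1 copy of several of these genes causes Diamond-Blackfan anaemia, in which erythroid precursors fail.

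The start of transcription is shown for members of different roles, because the pyrimidine run is what these promoters share beyond the naming rule. Sequences are from RefSeq on GRCh38.p14, each 30 bases long and read 5′ to 3′ on the gene's strand, with 15 bases before the annotated start. Capitals mark the unbroken run of C and T that covers the annotated start.
RPLP0, chr12:120201097-120201126, minus strand: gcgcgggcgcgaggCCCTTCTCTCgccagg
RPLP1, chr15:69452803-69452832, plus strand: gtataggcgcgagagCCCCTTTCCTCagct
RPLP2, chr11:809952-809981, plus strand: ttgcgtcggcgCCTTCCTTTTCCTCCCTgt
RPSA, chr3:39406705-39406734, plus strand: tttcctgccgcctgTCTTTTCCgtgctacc
RPS19, chr19:41860240-41860269, plus strand: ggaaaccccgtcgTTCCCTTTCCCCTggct
RPS14, chr5:150449725-150449754, minus strand: ccgccccctcccaCTCTCTCTTTCCggtgt
RPS6, chr9:19380222-19380251, minus strand: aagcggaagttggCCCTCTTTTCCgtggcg
RPL13A, chr19:49487593-49487622, plus strand: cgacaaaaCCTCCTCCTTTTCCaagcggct
RPL26, chr17:8383179-8383208, minus strand: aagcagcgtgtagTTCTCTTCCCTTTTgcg
RPL31, chr2:101002274-101002303, plus strand: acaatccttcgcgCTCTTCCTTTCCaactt
RPL11, chr1:23691764-23691793, plus strand: cgcctcctggcccataaggccctcggccgg

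RPL11 is shown as a member without such a run at its outermost annotated start. Over the 60 core genes with a RefSeq window at that start, a run of at least 5 pyrimidines covered it in 73.3%, against 7.64% of 13753 other genes. The first transcribed base was a C in 76.7% of the core genes and in 11% of the others. The median run was 11 bases in the core genes and 0 in the others. RefSeq windows were found for 70 of the 87 members, and genes with several annotated starts were read at the outermost one.

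Upstream stretches of 150 bases are shown for RPL26, whose start site fell most in accessibility by 72 h, and for RPL31 and RPL11, whose start sites fell least. Capitals mark CCGGAAG, the letters bound by ETS family factors, where they occurred.
RPL26, chr17:8383194-8383343, minus strand: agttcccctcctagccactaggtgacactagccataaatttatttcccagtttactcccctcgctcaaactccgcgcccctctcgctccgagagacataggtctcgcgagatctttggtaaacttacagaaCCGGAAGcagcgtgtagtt
RPL31, chr2:101002139-101002288, plus strand: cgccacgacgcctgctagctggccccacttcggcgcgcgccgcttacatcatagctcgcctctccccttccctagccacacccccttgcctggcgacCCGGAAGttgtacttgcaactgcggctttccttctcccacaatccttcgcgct
RPL11, chr1:23691629-23691778, plus strand: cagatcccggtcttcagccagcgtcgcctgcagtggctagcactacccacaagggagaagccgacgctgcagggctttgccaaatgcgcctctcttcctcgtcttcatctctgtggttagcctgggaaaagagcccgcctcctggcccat

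The match began 19 bases before the start in RPL26 and 53 bases before it in RPL31. In RPL11 the letters were not in the stretch shown, but its 300-base window, read on both strands, held them. All 3 windows, of the gene that fell most and of those that fell least, thus held a match. The windows of RPL28 (-1.78 at 72 h) and RPL12 (-0.99) held none. Read that way, CCGGAAG occurred in 35.0% of the 60 core genes and in 14.5% of the other genes. ATGGCG, the core bound by YY1, occurred in 35.0% and 14.8%. GGGCGG, the SP1 family letters, occurred in 55% and 58.5%, and CCAAT in 36.7% and 37.2%. TATAAA occurred in 8.33% and 10.0%, the E-box CACGTG in 5.00% and 8.97%, and the CRE TGACGTCA in 5.00% and 2.69%. For factors known in PMA responses and in erythroid cells the counts were small. TGANTCA for AP-1 occurred in 1 of the 60 core genes (1.67%) and in 5.79% of the others. AGATAA for GATA factors occurred in 2 of the 60 (3.33%) and in 7.71% of the others. The NRF1 palindrome occurred in 1.67% and 1.84%. The letters of the YY1 core can overlap a start codon, since the window reaches 50 bases past the start. Letters are a description of these windows and not evidence that a factor binds there.

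The libraries held between 12258890 and 35548737 counts over the deposited sites. Erythroid marker genes carried a deposited peak near an end in both 0 h libraries for 10 of 10 genes, megakaryocyte markers for 4 of 6, T cell and fibroblast markers for 2 of 3 each and B cell markers for 0 of 3. In both 72 h libraries these counts were 10, 4, 3, 3 and 0. Summed over its sites, the erythroid list had 409 and 420 CPM at 0 h against 171 and 182 at 72 h, and the megakaryocyte list 56.6 and 60.2 against 37.1 and 41.1. The T cell list went from 29.8 and 39.3 CPM to 27.8 and 30.4, and the fibroblast list from 36.1 and 37.7 to 41.0 and 45.0. The erythroid and megakaryocyte lists were thus lower along with the member sites, and their part in the results below was not tested. CPM are counts relative to a TMM-scaled library size and are used unless stated otherwise, and log2 fold changes are from edgeR's quasi-likelihood fit over all 6 libraries. The scaling sets the level of every absolute change. Under TMM the median of all 177759 tested sites was 0.29 at 72 h against 0 h on the log2 scale. It was 0.11 with RLE size factors, 0.79 with total counts, 1.26 with TMM factors taken only from sites carrying a peak in each library (called shared peaks below) and -0.04 with loess offsets, which remove a trend along abundance. Differences between sites of similar abundance do not move with a single factor per library, so they are given beside each absolute change. Loess offsets do move them, to -0.22 for the members and to -1.51 for their end sites at 72 h, where the TMM fit gave -0.17 and -1.23. A comparison of 2 libraries with 2 libraries by exact permutation cannot give a p under 0.333.

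Of the 145 member sites, 73 lay at the start of a gene, 46 at the 3′ end, and 26 belonged to 17 genes without a strand entry in the tables used. All 145 were tested. At 6 h, 87 sites were lower and 2 higher than at 0 h at an adjusted p under 0.05, where calls in all tested sites were lower for 16.8% and higher for 23.4%. Calls in either direction made up 40.1% of all tested sites. At 72 h against 0 h, 135 were lower and 2 higher. Of all tested sites 29.2% were called lower and 38.2% higher, 67.4% together. At 72 h against 6 h, 126 were lower and 1 higher, where the whole table gave 20.9% and 22.1%, 42.9% together. The median member changed by -0.49 at 6 h, by -1.52 at 72 h and by -1.07 between 6 and 72 h on the log2 scale. The backdrop for gene ends was itself low, with a median of -1.16 at 72 h and 13006 of 18984 other gene-end sites below 0 h by the test. Against other gene-end sites within 10% of its 0 h CPM, the median member lay lower by -0.05 at 6 h, by -0.17 at 72 h and by -0.12 for 72 h against 6 h. At 6 h this distance was -0.084 without the second 6 h library and -0.028 without the first. It combines start and end sites, which are given separately next.

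**Figure D1:**
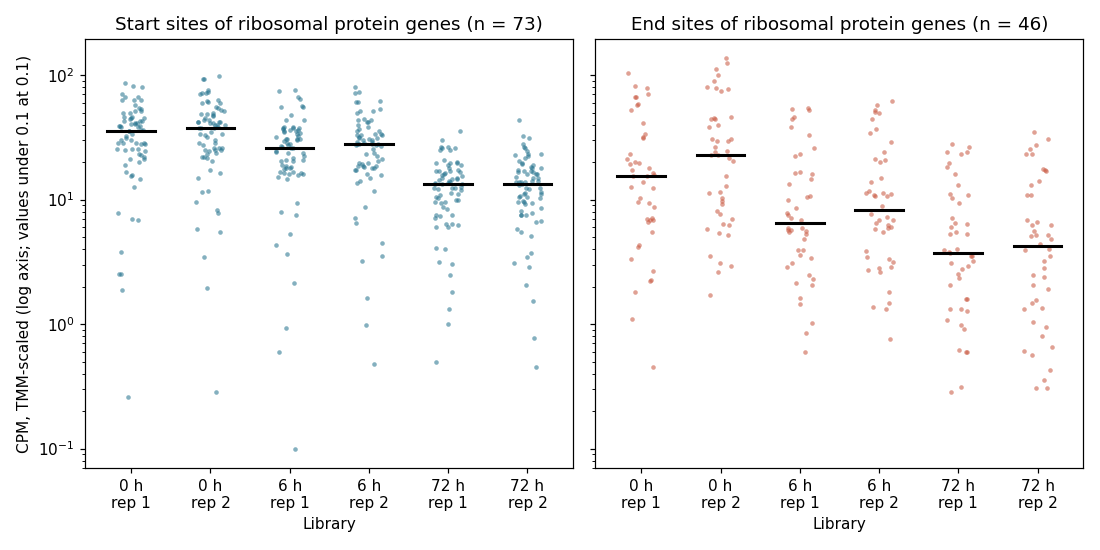
Accessibility of each start site (73, left) and each end site (46, right) of the ribosomal protein genes in the 6 libraries, as TMM-scaled CPM on a log axis, with the median of each library as a black bar. Both kinds of site were lower at 72 h, and the end sites had already dropped at 6 h.

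Sites across the start of a ribosomal protein gene were found for 66 of the 70 members with known strand. They were open in every library, as 66 of 66 overlapped a deposited peak in each of the 6 peak lists. Their median CPM was 37.4 and 39.6 in the 0 h libraries, 27.7 and 28.7 at 6 h, then 13.7 and 13.8 at 72 h. The 3 time points did not overlap in these medians. At 6 h, 32 of the 66 were called lower and none higher, and the median log2 fold change stood at -0.39. This count was 48 with RLE size factors, 16 with total counts, 10 with loess offsets (and 1 higher) and 2 with shared peaks, where the median was -0.098. Other start sites in the same range of 0 h CPM, 7389 in number, were called lower in 51.7% at 6 h, against 48.5% of the 66. At 72 h all 66 were called lower, with log2 fold changes from -2.05 to -0.89 and a median of -1.46. Of the other start sites in that range 95.9% were called lower, so the count is close to its background. That median stayed below 0 in each of the 5 scalings, but with loess offsets 6 of the 66 lay above 0 and 1 was called higher, and with TMM factors from shared peaks 1 lay above 0. With those 2 scalings the median was -0.46 and -0.49.

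Most of this fall was common to gene starts. The median of 11454 other start sites was -0.39 at 6 h and -1.26 at 72 h. Against other start sites of similar 0 h CPM, the median ribosomal protein start lay 0.03 higher at 6 h, where 28 of 66 lay below their comparison. Over all 73 start sites that 6 h distance was 0.015, with -0.048 and 0.078 when the second or the first 6 h library was left out. At 72 h it lay lower by -0.10, and 48 of 66 lay below. The distance at 72 h against 6 h, which uses no 0 h library in its fold change, was also -0.10 with 48 of 66 below.

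**Figure D2:**
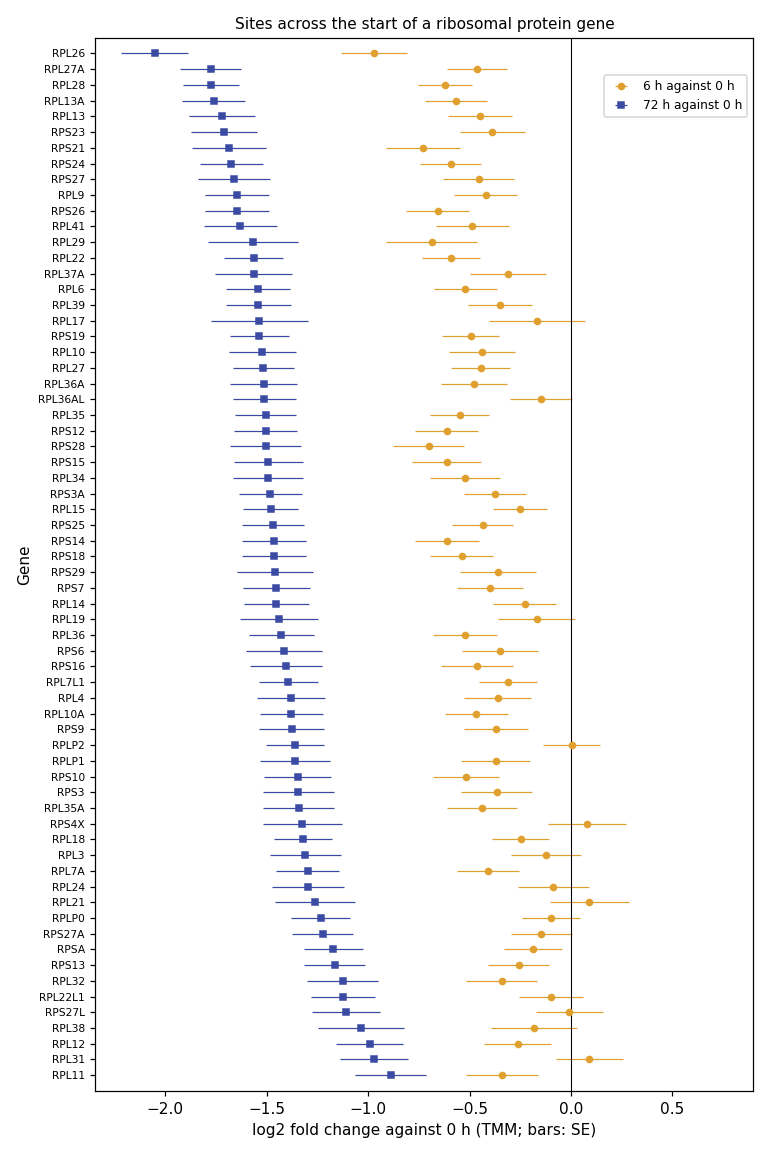
Log2 fold change at 6 h (circles) and at 72 h (squares) against 0 h for the 66 sites across the start of a ribosomal protein gene, ordered by the 72 h value, with standard errors from the fit as bars. All 66 values at 72 h lie between -2.05 and -0.89 under TMM, while loess offsets put 6 of them above 0, and the 6 h values lie between -0.97 and 0.09.

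The stalk proteins RPLP0, RPLP1 and RPLP2, which recruit translation factors to the large subunit, had start sites that were not called at 6 h under TMM. With loess offsets RPLP2 was called higher at that time (0.43), and with RLE size factors RPLP1 was called lower (-0.52). RPLP2 had 63.2 and 76.0 CPM at 0 h, 67.1 and 72.3 at 6 h, then 26.1 and 28.1 at 72 h. Its 6 h libraries lay inside the 0 h range, and its log2 fold change at 72 h was -1.36. RPLP0 had 63.7 and 70.7 CPM at 0 h, 63.9 and 61.6 at 6 h, then 25.8 and 31.4 at 72 h. RPLP1 had 43.0 and 62.6 CPM at 0 h, 37.4 and 44.2 at 6 h, then 19.7 and 21.5 at 72 h. In all 3 genes the 72 h libraries lay below the other libraries. Both 72 h libraries lay below both 0 h libraries at 83.4% of other start sites and 36.9% of all tested sites. Against the 6 h libraries these shares were 81.8% and 35.4%. Loess offsets turned the 72 h change of RPLP0 to 0.20 and of RPLP2 to 0.10, neither of them called. They left RPLP1 at -0.13, also not called. With shared peaks RPLP0 was not called either, at -0.27.

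RPL11 and RPL5 travel with the 5S ribosomal RNA and bind MDM2 when ribosome assembly is disturbed. The RPL11 start had the smallest fall of the 66, with 21.4 and 24.9 CPM at 0 h, 16.6 and 19.7 at 6 h, then 12.6 and 12.4 at 72 h. Its log2 fold change at 72 h was -0.89 (SE 0.18, adjusted p = 0.00014 by edgeR's quasi-likelihood test). With TMM factors from shared peaks it was 0.08 and not called, and with loess offsets -0.13 and not called. The strand of RPL5 was not in the tables, and the site across one of its ends, which also lies near DIPK1A, held 43.2 and 41.4 CPM at 0 h, 29.4 and 32.2 at 6 h, then 15.2 and 16 at 72 h. Its log2 fold change at 72 h was -1.44.

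Small subunit starts numbered 24, with medians of -0.45 at 6 h and -1.46 at 72 h. RPSA, also known as a laminin receptor precursor, had 79.7 and 98.6 CPM at 0 h, 75.9 and 80.8 at 6 h, then 35.8 and 43.4 at 72 h. Its log2 fold change at 72 h was -1.17 under TMM and 0.43 with loess offsets, where it was called higher (adjusted p = 0.00417). With shared peaks it was -0.20 and not called. RPS19, the gene most often mutated in Diamond-Blackfan anaemia, had 71.0 and 72.3 CPM at 0 h, 48.2 and 53.3 at 6 h, then 26.5 and 23 at 72 h. No 2 time points of RPS19 overlapped, and it was lower by 6 h (-0.50, adjusted p = 0.0079). With loess offsets and with shared peaks this 6 h call was lost (-0.11 and -0.20), and with loess offsets the 72 h value was -0.15 and not called. RPS14, which lies in the segment lost in the 5q- syndrome, had 39.2 and 39.7 CPM at 0 h, 23.8 and 27.7 at 6 h, then 14.8 and 13.8 at 72 h.

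RPS6, the substrate of the S6 kinases, had 21.9 and 22.2 CPM at 0 h and 7.07 and 9.44 at 72 h, a log2 fold change of -1.42. RPS26, which lines the mRNA exit channel, had 66.3 and 62.9 CPM at 0 h, 38.0 and 43.7 at 6 h, then 17.9 and 23.3 at 72 h. RPS3, at the mRNA entry channel, changed by -1.35 at 72 h, and RPS27A, made as a fusion with ubiquitin, by -1.22. RPS26 was already called lower at 6 h (-0.66), whereas RPS3, RPS6 and RPS27A were not, at -0.37, -0.35 and -0.15. The 6 h call of RPS26 was lost with loess offsets (-0.32) and with shared peaks (-0.36), while RLE size factors also called RPS3 and RPS6 lower, at -0.52 and -0.50. Whether these 6 h changes differ between genes was not tested. At 72 h the calls of RPS3, RPS6, RPS14 and RPS26 held in all 5 scalings, and that of RPS27A was lost with loess offsets (-0.13) and shared peaks (-0.26).

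Large subunit starts numbered 38 and had medians of -0.39 at 6 h and -1.47 at 72 h, close to those of the small subunit. RPL26, at the exit of the peptide tunnel, fell most of all starts, from 38.4 and 45.2 CPM at 0 h through 20.3 and 22.3 at 6 h down to 9.89 and 10.3 at 72 h. The log2 fold change was -0.97 at 6 h (adjusted p = 5.9e-05) and -2.05 at 72 h, the lowest of the 66 at both times. It was called lower at both times in all 5 scalings. RPL31, also at the tunnel exit, had 28.4 and 26.0 CPM at 0 h, 29.9 and 28.1 at 6 h, then 12.4 and 15.3 at 72 h. Its call at 72 h was lost with loess offsets (-0.05) and with shared peaks (-0.01). RPL13A, also known for translational control under interferon, had 53.8 and 52.2 CPM at 0 h, 38.1 and 33.6 at 6 h, then 17.1 and 14.2 at 72 h. RPL3, next to the peptidyl transferase centre, changed by -0.12 at 6 h and -1.31 at 72 h. RPL10, a late-joining protein, changed by -0.44 and -1.52. The 72 h call of RPL3 was lost with shared peaks (-0.34) and that of RPL10 with loess offsets (-0.31). RPL15, also of the large subunit, held 82.2 and 93.0 CPM at 0 h and changed by -0.25 and -1.48, although with loess offsets its 72 h value was 0.07 and not called.

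The 16 start sites of genes mutated in Diamond-Blackfan anaemia changed by a median of -0.45 at 6 h and -1.49 at 72 h. The other 46 core starts changed by -0.38 and -1.46. All 62 of these core starts were called lower at 72 h under TMM, as were 95.9% of other start sites in the same range of 0 h CPM. Start sites of core genes that host small nucleolar RNAs in their introns, 19 in number, had a median of -1.38 at 72 h, and the 43 without had -1.46. Among core genes with a window, those with a pyrimidine run over the start (44) had a median of -1.46 and those without (16) of -1.47. Those with CCGGAAG (21) had -1.44 and those without (39) -1.48. These splits are descriptions and were not tested.

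Starts of the paralogues were also lower at 72 h. RPL22L1, RPL36AL, RPL7L1 and RPS27L had sites across the start, none was called at 6 h and all 4 were called lower at 72 h, with a median of -1.26. RPS27L, known as a p53 target, had 41.5 and 47.8 CPM at 0 h, 36.8 and 51.5 at 6 h, then 19 and 22.4 at 72 h. Its 72 h call was lost with loess offsets (0.10) and with shared peaks (-0.14). RPL39L and RPL3L had no strand entry. The RPL39L site across a gene end changed by -1.61 at 72 h. RPL3L had one site outside the gene near MSRB1 that changed by -1.49 and one inside the gene that was not called, at -0.50. RPL26L1 had only a site beside the start, with the lowest 0 h value of all members at 0.27 CPM, and it was called in no contrast of the TMM fit.

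Sites at the 3′ ends of the genes had the larger falls, most of them called already at 6 h. The contrast of end with start sites is a description and was not tested. Some end sites, such as those of RPL15 and RPL32 named below, overlapped a deposited peak only in the 0 h libraries. How the site list was made is not given. If a site entered it only through a 0 h peak, a later fall could be partly built in, and this was not tested. The 0 h libraries had a median of 15.5 and 22.8 CPM at these sites, followed by 6.44 and 8.29 at 6 h, then 3.75 and 4.21 at 72 h. At 6 h, 39 of 46 were called lower and 1 higher, with a median of -1.24. At 72 h, 41 were called lower and 2 higher, with a median of -2.19. Among other end sites, 802 of 3724 were lower and 747 higher at 6 h, with a median of -0.15. Their median was -0.42 at 72 h, with 1596 lower and 1015 higher. In the 0 h CPM range of the member ends, 2655 other end sites remained. Of these 28.9% were lower at 6 h and 56.3% at 72 h, with medians of -0.32 and -0.82. Higher calls in that range numbered 426 at 6 h and 469 at 72 h. Their median 0 h level, 4.36 and 4.78 CPM, was still below that of the members. Against other end sites of similar 0 h CPM, available for 43 of the 46, the median ribosomal protein end lay lower by -0.85 at 6 h, with 37 below, and by -1.23 at 72 h, with 36 below. Between 6 and 72 h the distance was -0.47, with 31 of 43 below.

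The first 0 h library was lower than the second at these end sites, with a median log2 ratio of 0.51 between them. That 0 h ratio was 0.09 at ribosomal protein starts and 0.10 at other end sites. At the ribosomal protein end sites the ratio of the second to the first library was 0.32 at 6 h and -0.007 at 72 h. Without the second 0 h library the distance at 6 h was -0.54 in place of -0.85, and at 72 h it was -0.96. Without the first it was -0.94 and -1.34. The end sites stayed lower by their median in each of the 5 scalings, at -1.22 to -2.37 for 72 h against 0 h. Of the 46, 36 were called lower in all 5 scalings at 72 h and 30 at 6 h. For start sites those counts were 38 and 2 of 73. Such counts over all 5 scalings were not made for other sites. With shared peaks alone, 647 of 3724 other end sites were called lower at 72 h and 403 at 6 h, against 38 and 31 of the 46. Among 11454 other start sites these were 4681 and 1123, against 50 and 3 of the 73.

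**Figure D3:**
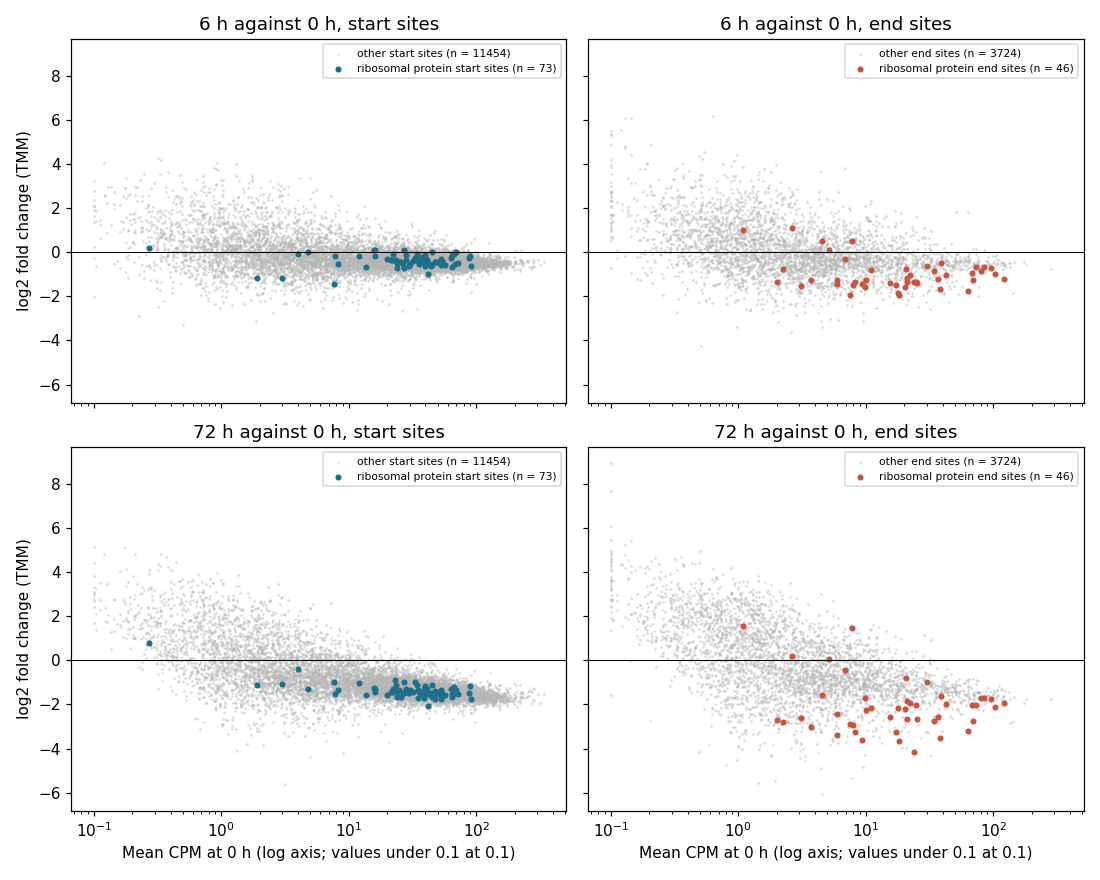
Log2 fold change (TMM) against mean 0 h CPM on a log axis for start sites (left) and end sites (right), at 6 h (top) and 72 h (bottom), with ribosomal protein sites in colour over other protein-coding gene sites in grey. The coloured start sites lie within the grey cloud, while most coloured end sites lie along its lower edge.

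The end sites included 12 inside the gene, 8 across the annotated end and 26 beyond it, and their medians at 72 h were -2.34, -2.02 and -2.23. RefSeq names 1989 pseudogenes after 79 of the members, copies of the mRNA that carry exon sequence, and the handling of reads that match several places is not given in the sources used here. Counts of sites over exons are uncertain for that reason, and sites were not compared with exons here. Another protein-coding gene ended or began within 1000 bases of 19 of the 46. Their median at 72 h was -2.03, and that of the 27 without such a neighbour was -2.58.

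The lowest site of all members at 72 h lay inside RPS23 (chr5:82274184-82274988), 864 bases from the 3′ end of this gene for a protein of the decoding centre. It held 16.5 and 31.0 CPM at 0 h, 6.91 and 11 at 6 h, then 1.32 and 1.32 at 72 h. No time points overlapped, and the log2 fold change at 72 h was -4.17 (SE 0.30, adjusted p = 4.1e-10). Another RPS23 site, across the end, changed by -3.62. The start site of the same gene changed by -1.71, from a mean of 34.8 CPM to 10.6.

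RPL32, a large subunit protein, had a site 251 bases beyond its end (chr3:12832933-12834234), near CAND2. It held 14.0 and 22.8 CPM at 0 h, 3.07 and 5.95 at 6 h, then 1.58 and 1.35 at 72 h. The log2 fold change was -1.96 at 6 h and -3.66 at 72 h, and no time points overlapped. The RPL15 end site had log2 fold changes of -1.92 at 6 h and -2.90 at 72 h, both called, while its start was not called at 6 h.

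Strong end sites fell as well. The end site of RPL13A had 52.1 and 75 CPM at 0 h, 16.2 and 21.0 at 6 h, then 7.09 and 6.63 at 72 h, a log2 fold change of -3.21. The end site of RPS9, the strongest at 0 h, had 105 and 136 CPM at 0 h, 44.5 and 57.7 at 6 h, then 28.2 and 34.8 at 72 h. The RPS19 end had 33.7 and 39.8 CPM at 0 h, 16.7 and 14.8 at 6 h, then 6.08 and 6.25 at 72 h. RPL3, RPS6 and RPL10 changed by -2.77, -3.37 and -2.74 at their end sites at 72 h. The end sites of RPS14, 194 bases inside and 558 bases beyond the end, changed by -3.24 and -2.58. RPLP0 and RPLP1 ends changed by -1.74 and -2.21, of which RPLP0 was not called with loess offsets (-0.25).

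The end of RPL11 took another course. The site across it held 3.31 and 5.83 CPM at 0 h, 5.63 and 7.21 at 6 h, then 1.58 and 1.49 at 72 h. It was not called at 6 h, and it was lower by -2.08 at 72 h against 6 h, the third lowest of all members in that contrast. At 72 h against 0 h it was -1.59 under TMM, and with TMM factors from shared peaks it was -0.62 and not called.

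**Figure D4:**
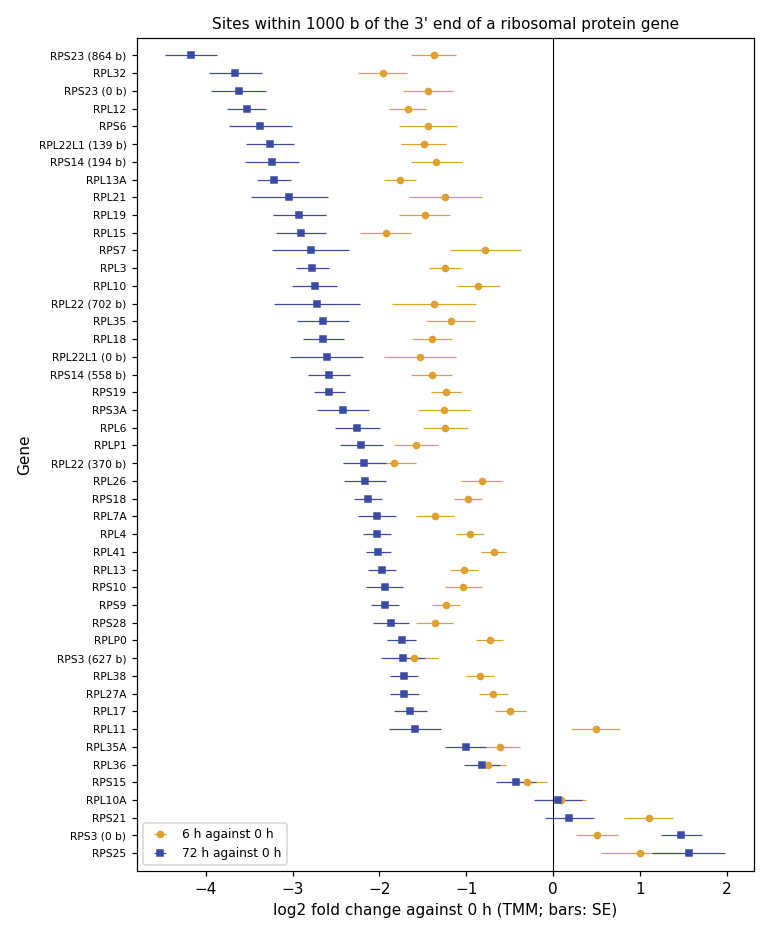
Log2 fold change at 6 h (circles) and at 72 h (squares) against 0 h for the 46 end sites, ordered by the 72 h value, with standard errors as bars and, for genes with several end sites, the distance to the gene end in bases (b). Values at 72 h reach from -4.17 at RPS23 to 1.56 at RPS25, and 42 of the 46 lie below 0 under TMM, with 40 to 44 below 0 in the other scalings.

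Both ends could be compared within a gene for 41 members with a site across the start and a site at the end, taking the strongest end site at 0 h. This choice, and the cut at 5 CPM below, use the 0 h libraries that are also the baseline of the 6 and 72 h changes. They can therefore favour a fall at the end site. Sites of the other genes were chosen in the same way. The end site had the lower log2 fold change in 35 of 41 genes at 6 h and in 34 of 41 at 72 h. The median difference of end minus start was -0.66 at 6 h and -0.70 at 72 h, and in the other scalings it lay between -0.66 and -0.83 at 6 h and between -0.70 and -1.53 at 72 h. Among 1897 other genes with both sites the end was lower in 39.4% at 6 h and 32.2% at 72 h. Restricted to end sites above 5 CPM at 0 h, the end was lower in 33 of 36 members and in 51.6% of 717 other genes at 6 h. At 72 h these were 31 of 36 and 45.7%. Between 6 and 72 h the members showed little difference, with the end lower in 23 of 41 and a median of -0.06, although loess offsets gave -0.30. Among the other genes the end was lower in 30.2% over that interval, with a median of 0.39 that loess offsets turned to -0.14. The end site was stronger than the start site in 13 of the 41 genes at 0 h and in 9 at 72 h.

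In the authors' peak lists the starts were at their ceiling of 66 in every library, so these lists cannot show a change at starts. End sites overlapped a peak in 36 and 40 of 46 cases in the 0 h libraries, in 19 and 29 at 6 h and in 23 and 26 at 72 h. The shares of other end sites with a peak were 40.7% and 46.0% at 0 h, 38.0% and 57.1% at 6 h, rising to 68.1% and 71.2% at 72 h. The members thus began above the other end sites and finished below them. The first 6 h library was the shallowest of the 6, and the part of depth in these shares was not tested. Within the peaks across a start, the summit lay a median of 87.5 and 66.5 bases before the start at 0 h, 25.5 after and 18.5 before it at 6 h, and 86.0 and 69.0 before it at 72 h. The quartiles of the first 0 h library ran from -217 to 79.8 bases, so these shifts are small against the spread between genes.

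**Figure D5:**
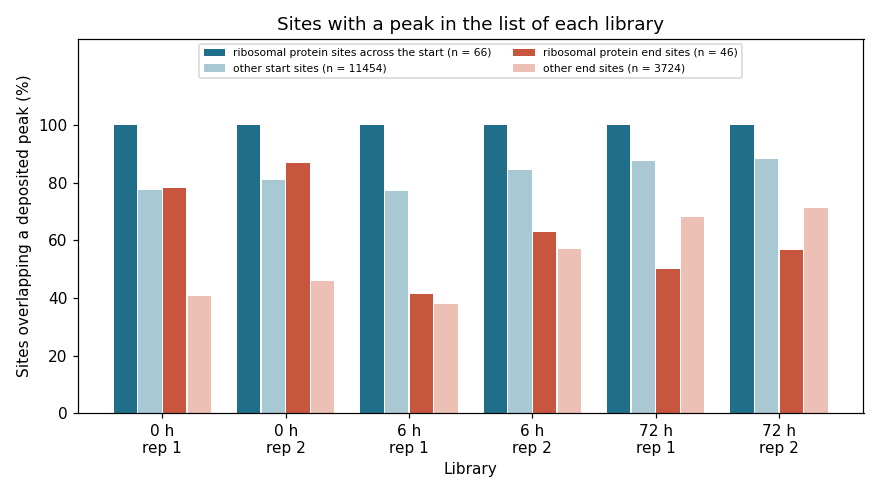
Share of sites that overlap a deposited peak, by library, for the 66 ribosomal protein sites across the start, 11454 other start sites, 46 ribosomal protein end sites and 3724 other end sites. Ribosomal protein starts are at 100% in every library, while their end sites drop from 78.3% and 87.0% at 0 h to between 41.3% and 63.0% later.

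A few member sites rose. The site across the end of RPS3, which also lies near KLHL35, had 10.3 and 5.35 CPM at 0 h, 10.7 and 11.3 at 6 h, then 19.8 and 23.4 at 72 h. Its 72 h value exceeded that of 0 h (1.48, adjusted p = 1.1e-05) and that of 6 h (0.97), the only member called higher in that contrast. Another site inside RPS3, 627 bases from the same end, changed in the opposite direction, with 9.62 and 10.2 CPM at 0 h and 3.49 and 2.50 at 72 h (-1.73). The end site of RPS25, near CENATAC, rose from 0.46 and 1.72 CPM at 0 h to 2.80 and 3.96 at 72 h, a log2 fold change of 1.56 that was not called with loess offsets (0.96). At 6 h, 2 sites rose. A site inside RPL30 changed by 1.88 from 0.39 and 0.96 CPM to 1.62 and 3.29, but without the second 6 h library it was 1.15 and not called. A site 41 bases inside the end of RPS21, near CABLES2, went from 2.21 and 3.11 CPM to 5.46 and 6.01 (1.1) and was at 2.93 and 3.19 at 72 h.

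The highest 0 h value of all members, a mean of 158 CPM, was at a site 987 bases outside RPL23A and near TLCD1, just within the reach of the rule. It had 140 and 176 CPM at 0 h, 107 and 109 at 6 h, then 44.4 and 47.2 at 72 h. With loess offsets its 72 h value was 0.03 and not called. The nearest site beyond the reach, 1003 bases from RPL35A, held 1.1 and 2.44 CPM at 0 h and 4.45 and 5.47 at 72 h. Among sites of genes without a strand entry, the 17 across a gene end changed by a median of -1.45 at 72 h, and the 9 beside one by -1.79.

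Other genes of the translation machinery were described from lists chosen by function. FAU and RACK1, ribosomal proteins with other names, had 3 sites, all lower at 6 and 72 h. RACK1, a signalling scaffold on the small subunit, changed by -1.29 at its start and by -2.91 at its 1 end site at 72 h. The start of FAU changed by -1.53, at a site that is also the start of MRPL49 and is counted with the mitochondrial genes below as well. Translation factors and other TOP mRNA genes had 31 sites at 17 genes, of which 17 were lower and 2 higher at 6 h. By 72 h 26 sites of this list were lower and none was higher, with a median of -1.62. That is 83.9% lower, where other start sites were lower in 78.5% and other gene-end sites of either kind in 68.5%. The lowest were a site across the end of EEF1A1, the elongation factor that brings tRNA to the ribosome, at -2.86, and one near HNRNPA1 at -2.79. The highest, at EIF3H (0.50) and NAP1L1 (0.35), were not called. Starts of this list, 13 in number, were lower at 72 h in 92.3%. Among other start sites in the 0 h CPM range of the ribosomal protein starts this was 95.9%. The 5 end sites of the list had a median of 0.06 at 6 h, with 1 lower and 2 higher. At 72 h their median was -0.74, with 3 lower and none higher.

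Genes of ribosome assembly and ribosomal RNA synthesis had 47 sites at 29 genes. At 72 h 37 were lower (78.7%) and 2 higher, with a median of -1.39, where other gene-end sites of either kind were lower in 68.5%. The 30 starts of this list were lower in 86.7%. Other start sites were lower in 78.5%, and those in the 0 h CPM range of the ribosomal protein starts in 95.9%. The 8 end sites of the list had medians of -0.59 at 6 h and -1.63 at 72 h, with 5 lower and none higher each time. The end site of NOP56, a core protein of box C/D snoRNPs, changed by -3.99, and a site of NOLC1 by -3.46, while a site across an end of POLR1E, a subunit of RNA polymerase I, rose by 2.16 and one beside the start of EIF6 rose by 0.91. Mitochondrial ribosomal protein genes, whose products serve a separate ribosome, had 103 sites at 75 genes, of which 90 were lower (87.4%) and 4 higher at 72 h. Other gene-end sites of either kind were lower in 68.5%. The 73 starts of the mitochondrial list had a median of -1.32, with 95.9% lower. Other start sites in the 0 h CPM range of the cytosolic ribosomal protein starts were also lower in 95.9%. Of 2655 other end sites in the 0 h CPM range of the cytosolic ends, 56.3% were lower and 469 sites higher, with a median of -0.82. The 19 mitochondrial end sites had a median of -0.71, with 11 lower (57.9%) and 3 higher, although MRPL22 had an end site at -4.33. The highest were end sites of MRPL46 at 2.21 and MRPL14 at 1.73. The difference between cytosolic and mitochondrial ribosomal protein end sites was not tested.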

How the data were processed

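ATAC-seq of K562 was deposited as a table of read counts per site and library and as a peak list per library. The deposited counts were whole numbers with a different total in each library and were treated as raw. The deposited table also holds the authors' log2 fold changes, adjusted p-values and class names, of which only the closing section prints any. The deposited peak lists follow the narrowPeak layout, with the authors' score, fold enrichment and −log10 p and q per peak. The results above use the position and summit of a peak, and q only to choose among several peaks over a start. The build is hg38, and the tools named are Trim Galore 0.4.3, BWA 0.7.17, SAMtools 1.9, deepTools 3.0.1, MACS2, bedtools 2.26 and DESeq, per the submitters' processing notes, without roles. The making of the site list, read filters and any shift for the transposase are not given in the sources used here.

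Gene ends, strands and promoters came from RefSeq tables of GRCh38.p14. A site within 1000 bases of ends of several genes was assigned to its nearest member, and a site was a start or an end site by the nearer end. Counts were fitted with edgeR 4.0.16 in R 4.3.3 (TMM, the default filter with a minimum of 10 counts, quasi-likelihood F test, 3 time groups in 1 fit of 6 libraries), leaving 177759 sites. P-values were adjusted by Benjamini-Hochberg over those sites and called at 0.05. The biological coefficient of variation was 0.166, and the fit was tested on simulated counts. Similar sites were those within 10% of a member's mean 0 h CPM, at least 20 of them. Replicate numbers were not used as pairs in the main fit. Over all tested sites, deviations of same-numbered libraries correlated at 0.05 to 0.09. These correlations cannot exclude pairing, as the median site held only 1.43 CPM in the first 0 h library. Alternatives were other scalings, DESeq2 1.42.0, other filters, thresholds and reaches, a replicate block and leaving out each library. Named sites were those of members picked by role, the 3 lowest and 3 highest of each contrast, those called against the median, and the highest and lowest 0 h CPM. End sites of other members, RPL26 and RPL31, and the strongest end site were named after their values were seen. Members and lists were chosen with earlier results of these data known, and the separation of start from end sites was added after seeing the data. Some results that the naming rule covers are not reported here.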

Additional observations from a re-analysis of the deposited data

How the results depend on the processing

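The number of member sites called at 6 h, 89 under the main settings, was 44 with TMM factors from shared peaks, 33 at an adjusted p under 0.01 with an absolute log2 fold change above 1, and 35 for gene starts only. At 72 h, 137 were called and 71 for gene starts only, a smaller set. At 72 h against 6 h, 127 were called, 71 with TMM factors from shared peaks, 54 with loess offsets, 84 at the stricter threshold and 68 for gene starts only. The median log2 fold change of the members at 6 h was -0.49, and -0.63 with DESeq2 and with RLE size factors, -0.19 with TMM factors from shared peaks, -0.30 with loess offsets, -0.35 with total counts, -0.44 with a reach of 500 bases and -0.40 for starts only. At 72 h it was -1.52, and -1.70 with DESeq2 and with RLE size factors, -0.55 with TMM factors from shared peaks, -0.62 with loess offsets, -1.02 with total counts and -1.44 for starts only. At 72 h against 6 h it was -1.07, and -1.09 with DESeq2, -1.10 with RLE size factors, -0.40 with TMM factors from shared peaks, -0.30 with loess offsets, -0.70 with total counts, and -1.04 with a reach of 2000 bases and for starts only.

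The distance from gene-end sites of similar 0 h counts at 6 h was -0.053, and -0.015 with a reach of 500 bases, -0.091 with 2000 bases, -0.087 when compared within the same kind of end, and 0.021, with its direction turned, for starts only. At 72 h it was -0.17, and -0.22 with loess offsets, -0.14 with a reach of 500 bases, -0.20 with 2000 bases, -0.10 for starts only and -0.19 within the same kind of end. At 72 h against 6 h it was -0.12, and -0.15 with a reach of 2000 bases, -0.10 for starts only and -0.14 within the same kind of end. Loess offsets gave -0.13 for starts at 72 h, and for end sites -1.51 at 72 h and -0.68 at 72 h against 6 h. The cause of these shifts was not tested, apart from the smaller sets.

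Leaving out each library in turn gave 61 to 104, 135 to 139 and 114 to 130 called sites for 6 h, 72 h and 72 h against 6 h. The medians ranged from -0.60 to -0.42, -1.59 to -1.47 and -1.09 to -0.97, and the distances from -0.084 to -0.028, -0.22 to -0.17 and -0.15 to -0.12. For starts the distance ranged from -0.05 to 0.08, -0.15 to -0.10 and -0.12 to -0.069, and for end sites from -0.94 to -0.54 (-0.98 to -0.52 when matched on the library left out), -1.34 to -0.96 and -0.54 to -0.35. With the replicate number as a block, 106, 137 and 129 sites were called, and the medians were -0.48, -1.51 and -1.06. Among single sites at 72 h, loess offsets turned RPL15 (0.067), RPSA (0.43), RPLP2 (0.097) and RPLP0 (0.20), and TMM factors from shared peaks turned the RPL11 start (0.080).

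The scaling limits every absolute change at gene starts, and with 2 libraries per time the spread rests on all sites together. Sites under about 1 CPM, such as RPL26L1, hold few counts. Named single sites that were called kept their calls with DESeq2, RLE size factors and no filter. RLE size factors added calls at 6 h, as at the starts of RPLP1, RPS3 and RPS6. With the block the RPS25 end site was also called higher at 6 h (1.00).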

Other observations

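The authors' deposited table gives each site a class name that does not follow the sign of its own fold change. Of the member sites, 27 are named upLate and 5 upEarly, and the authors' deposited log2 fold change at 72 h is below 0 for all 32 of them, with a median of -2.77 in the upLate class. Only 2 members are named downLate and 5 downEarly, and 106 are named static, of which 101 lie below 0 with a median of -1.59 in the authors' deposited table. Over the whole deposited table, 28.1% of 1992 downLate sites and 28.9% of 21243 upLate sites have an authors' fold change below 0. For 72 h against 0 h, the authors' deposited fold changes had the same sign as the fit used here at 144 of 145 member sites, and the median difference was -0.16. The class names were therefore not used.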
